A study of Homo sapiens with 6 samples.

Results

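Integrins and the focal adhesion proteins bound to them were examined in the established human glioblastoma cell line U87 after exposure to rutaecarpine. The members were chosen by name as 39 genes of the 60671 in the expression table, and comprised 20 integrin chains and 19 adaptors, kinases and membrane scaffolds. No value of the table set this choice, but earlier results of these data were known when it was made. The treated group was kept for 48 h in 100 μM rutaecarpine, an alkaloid of Evodia rutaecarpa, and the control group received 0.1% DMSO alone for the same time, each with 3 RNA-Seq libraries. The compound was diluted from a DMSO stock into serum-free medium. All 6 libraries came from a single cell line, and the labels do not say whether replicates were separate cultures, so p values measure the spread between these libraries, which may be technical. The study asked how rutaecarpine, an agonist of the aryl hydrocarbon receptor (AhR), affects genes related to glioblastoma migration.

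Integrins are receptors made of an alpha and a beta chain that join the matrix outside the cell to the actin cytoskeleton inside it. Which alpha chain is paired with which beta chain sets the ligand, such as laminin, collagen or proteins with the RGD (arginine-glycine-aspartate) sequence, and the short tails of the beta chains recruit talin and kindlin, which switch the receptor on. A focal adhesion then assembles around the tails, with scaffolds such as paxillin and vinculin, the kinases FAK and SRC, and the complex of ILK, PINCH and parvin, and the turnover of these structures drives the movement of glioma cells through brain tissue.

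The AhR acts as a transcription factor with its partner ARNT on DNA that holds the core letters GCGTG, so the 250 bases before each transcription start were read from RefSeq promoters on GRCh38.p14 for the members listed there. A start was listed for 29 of the 39 members, and GCGTG stood on either strand before at least 1 start of 16 of these (55.2%), against 9889 of 27305 genes (36.2%). Genes with several starts had more bases searched. The longer letters TNGCGTG, which contain the core and were also searched on either strand, were found before 1 of the 29 members (3.45%) and 5.54% of all genes. Printed here are 4 of the members with the largest changes described below, those with at most 2 listed starts, in lower case with GCGTG or its reverse complement CACGC in capitals and each written 5′ to 3′ along the strand of its gene. The ITGB8 sequence lies on the plus strand at chr7:20330650-20330899 and holds the core at 227 and 146 bases before the RefSeq start. The second of these belongs to the only TNGCGTG among the members. GENCODE 29 begins ITGB8 at 20330702, inside this window and before the second core. The LPXN sequence lies on the minus strand at chr11:58578134-58578383 and holds the core at 96 bases before the start, whereas its other start has none. The ITGA10 sequence on the minus strand at chr1:145910051-145910300 and the ITGA11 sequence on the minus strand at chr15:68432164-68432413 hold none. These matches describe letters in a window and are not binding sites.
ITGB8: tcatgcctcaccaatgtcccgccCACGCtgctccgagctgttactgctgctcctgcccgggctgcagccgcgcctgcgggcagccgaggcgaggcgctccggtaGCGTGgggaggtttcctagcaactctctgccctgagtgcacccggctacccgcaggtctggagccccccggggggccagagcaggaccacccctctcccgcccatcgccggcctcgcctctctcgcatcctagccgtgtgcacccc
LPXN: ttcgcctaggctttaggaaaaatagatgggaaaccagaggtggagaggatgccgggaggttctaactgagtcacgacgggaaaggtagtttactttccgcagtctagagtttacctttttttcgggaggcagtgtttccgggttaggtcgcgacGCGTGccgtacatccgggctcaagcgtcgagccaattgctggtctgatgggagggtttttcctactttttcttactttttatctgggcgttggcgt
ITGA10: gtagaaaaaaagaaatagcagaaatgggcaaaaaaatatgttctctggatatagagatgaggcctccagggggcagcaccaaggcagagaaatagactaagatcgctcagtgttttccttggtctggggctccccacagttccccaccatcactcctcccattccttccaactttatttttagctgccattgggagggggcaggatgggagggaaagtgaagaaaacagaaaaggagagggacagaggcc
ITGA11: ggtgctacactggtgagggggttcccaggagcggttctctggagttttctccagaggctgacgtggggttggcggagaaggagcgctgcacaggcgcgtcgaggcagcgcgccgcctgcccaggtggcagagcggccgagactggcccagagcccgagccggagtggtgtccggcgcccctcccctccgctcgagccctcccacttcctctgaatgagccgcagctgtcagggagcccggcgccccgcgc

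The values are TPM (reads estimated for a gene, divided by transcript length and scaled to a common library total), so levels can be set side by side between genes, but read depth and counting error are unknown. Control replicate 3 stood apart from the other libraries. Its median log2(TPM + 1) over the tested genes was 3.56, against 3.97 and 3.95 in control replicates 1 and 2 and 3.81 to 4.00 in the treated libraries. Among the 33 members tested, its TPM was under 75% of the mean of the other 2 controls in 19, against 42.8% of all tested genes, and its median level was 68.3% of that mean for the members and 81.6% for all genes. Its level moved with GC content, with a median of 63.2% in the third of tested genes with the lowest GC content and 102% in that with the highest, and of 37.8% and 102% for the 7 and 14 members there, while the median was 71.7% in the third of genes with the greatest length. Results that rest on this library are therefore given with and without it. CYP1B1, a standard AhR target, was at 84.67, 82.42 and 42.8 TPM in the controls and at 410.6, 335.45 and 422.88 TPM after rutaecarpine, as the labels of the groups require. Of the glial and neural progenitor markers 4 of 6 were detected (1 TPM or more in 3 or more libraries). S100B and SOX2 were at no more than 0.25 TPM in any library and GFAP between 3.48 and 5.41 TPM. All 5 mesenchymal markers were detected, with summed levels of 6043 to 8158 TPM in the controls and 3684 to 4584 TPM after treatment. Most of this sum was FN1, with means of 6025 and 3241 TPM. Of these markers CD44 and TAGLN did not pass the test, with log2 fold changes of 0.25 and -0.52. The glial sum, nearly all of it VIM, was at 6998 to 7994 TPM in the controls and 4450.5 to 5187 TPM after treatment, and by limma VIM and NES fell and OLIG2 rose (log2 fold change 0.83, adjusted p = 0.0262). Of the leukocyte, endothelial and epithelial markers CD68, which fell, and KRT8 were detected, and the others were at no more than 1.33 TPM.

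Rutaecarpine changed the mRNA of 9 of the 33 members tested (27.3%, against 9.29% of all tested genes), of which 4 rose and 5 fell. ITGA11, ITGB3, ITGB8 and LPXN rose, and ITGA3, ITGA7, ITGA10, BCAR1 and CAV1 fell. Integrin chains made up 6 of these, with 3 higher and 3 lower of 14 tested, and adaptors made up 3, with 1 higher and 2 lower of 19. With limma, the 4 talins and kindlins, the 4 genes of the ILK, PINCH and parvin complex and the 2 kinases gave 0 calls. The share called over all tested genes was 9.29%. In these groups 1, 2 and 1 genes had an unadjusted p under 0.05, which 24.4% of all tested genes reached.

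These calls come from limma on log2(TPM + 1) for genes that reached 1 TPM in 3 or more libraries, with a Benjamini-Hochberg adjusted p of at most 0.05 over all 14377 genes tested, of which 9.29% were called, 4.6% as higher and 4.68% as lower. Of the members 6 had also an absolute log2 fold change above 1 and are termed differentially expressed genes (DEGs), 5 of them integrins, against 3.51% of all genes. An unadjusted p under 0.05 was found for 17 of the 33 members against 24.4% of all genes. In 17 members the groups did not overlap, with the 3 treated libraries all above the 3 controls in 10 and all below them in 7, and this held for 33.3% of all genes. Median log2 fold changes were 0.24 for the integrins, -0.06 for the adaptors and 0.08 for all genes. The study's own lists of migration genes, which were selected on these libraries, hold ITGA2, ITGA11, ITGB3, ITGB8, LPXN and FERMT1, so the direction of these 6 is not independent evidence. The study, whose methods name DESeq2, DEGseq and edgeR, listed ITGA2 and FERMT1 as differentially expressed. Neither was called here by limma on log2(TPM + 1), which is a different test and scale. Their TPM ratios of treated to control means, 2.25 and 0.534, were close to the fold changes that the study listed. In bulk RNA, fewer cells that express a gene and less of its mRNA per cell cannot be told apart.

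**Figure D1:**
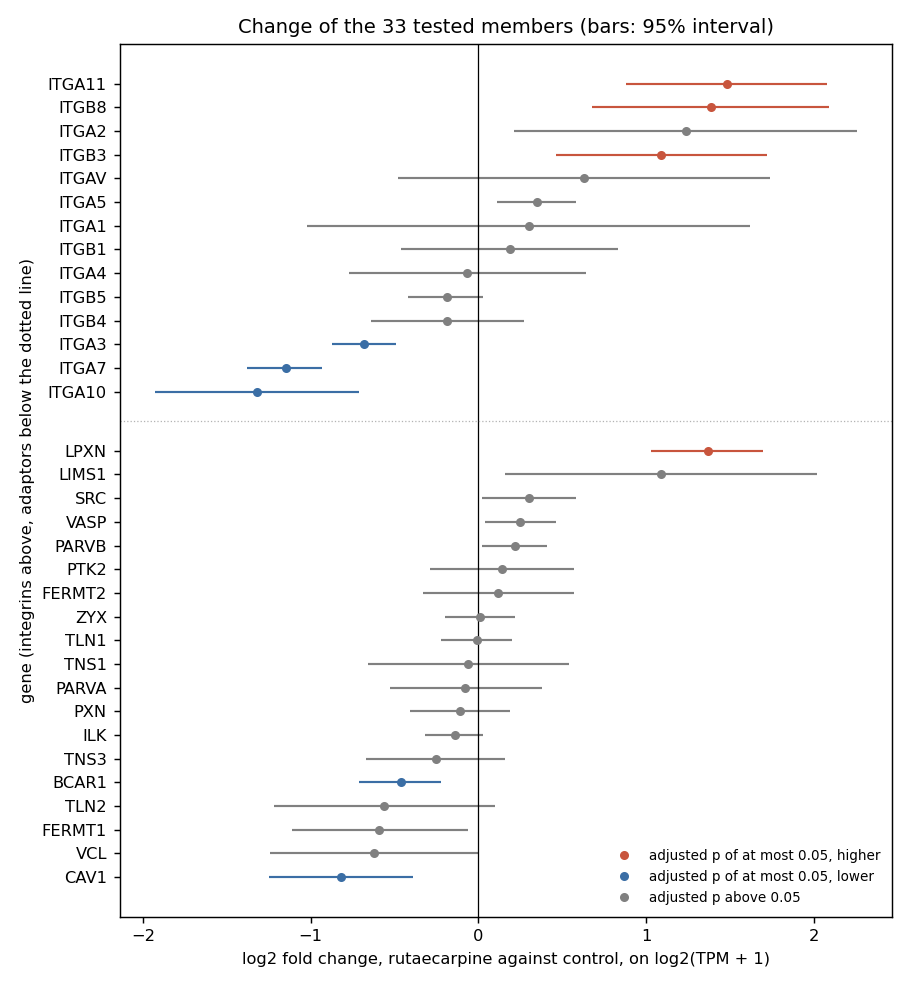
Log2 fold change of each of the 33 tested members on the log2(TPM + 1) scale (x axis, rutaecarpine against control, bars are 95% intervals), integrins above the dotted line and adaptors below it. ITGA11, ITGB8, ITGB3 and LPXN are marked as higher and ITGA10, ITGA7, ITGA3, CAV1 and BCAR1 as lower, while the wide bars of ITGA1, ITGAV, ITGA2 and LIMS1 span about 2 log2 units or more.

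Both laminin-binding alpha chains that were tested fell. ITGA3, which pairs with ITGB1 to bind laminins of the basement membrane, was among the most abundant integrin mRNAs, with 727.10, 716.91 and 735.49 TPM in the controls and 491.66, 415.71 and 454.66 TPM after rutaecarpine. Every treated library was below the controls, and control replicate 3 was level with the other controls. The mean fell from 726 ± 9.30 to 454 ± 38.0 TPM (SD, n = 3 as throughout), by -0.68 as log2 fold change (SE 0.08, 95% interval -0.87 to -0.49, limma with Benjamini-Hochberg adjusted p = 0.00369).

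ITGA7, the laminin receptor chain best known from skeletal muscle, was at 157.48, 139.87 and 130.18 TPM in the controls and at 61.91, 61.68 and 66.49 TPM in the treated cells. Every treated library was below every control, and the treated libraries lay close together. The mean was 2.25 times lower, 143 ± 13.8 against 63.4 ± 2.71 TPM, with a log2 fold change of -1.15 (SE 0.10, limma adjusted p = 0.000962). Both ITGA3 and ITGA7 were called under all 14 alternative settings, with ranges of -0.77 to -0.62 and -1.25 to -1.08. ITGA6, the partner of ITGB4 in epithelial hemidesmosomes, was too low to be tested, with 0.46 to 1.61 TPM in the controls and 0.68 to 0.99 TPM after treatment.

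Among the RGD-binding chains, ITGA5 was abundant and lay higher in all treated libraries, without passing the adjusted test. ITGA5, the alpha chain of the main fibronectin receptor, was at 516.80, 564.73 and 530.60 TPM in the controls and at 726.64, 731.97 and 597.38 TPM after rutaecarpine. No treated library reached down to the controls, although treated replicate 3 was nearer to the controls than the other 2. The means were 537 ± 24.7 and 685 ± 76.2 TPM, a ratio of 1.28 and a log2 fold change of 0.35 (SE 0.10, limma adjusted p = 0.0818). The adjusted p was 0.058 without control replicate 3 and 0.0231 with library weights. With the libraries centred on their medians the log2 fold change was 0.25 (adjusted p = 0.452).

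ITGAV, which pairs with ITGB3, ITGB5 and ITGB8, was at 58.99, 58.24 and 15.90 TPM in the controls and at 60.75, 52.74 and 66.00 TPM in the treated cells. Control replicate 3 was at 27.1% of the mean of the other controls, whose values lay among those of the treated libraries. The log2 fold change of 0.63 (SE 0.47, limma adjusted p = 0.456) became 0.02 without that library. ITGA8 reached at most 0.02 TPM in any library and was not tested.

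The collagen-binding alpha chains did not share a direction. ITGA11 rose, ITGA10 fell, and ITGA1 and ITGA2 did not pass the test. ITGA11, a receptor chain for fibrillar collagen found on mesenchymal cells, was at 4.44, 4.08 and 3.65 TPM in the controls and at 15.10, 8.62 and 17.08 TPM after rutaecarpine. All treated libraries were above all controls, and treated replicate 2 was the lowest of them. The mean rose from 4.06 ± 0.396 to 13.6 ± 4.42 TPM, 3.35 times, with a log2 fold change of 1.48 (SE 0.25, limma adjusted p = 0.0140). The adjusted p was 0.0502 without control replicate 2, 0.0725 without treated replicate 1 and 0.0649 without treated replicate 3, and the log2 fold change stayed between 1.30 and 1.76 when any 1 library was left out.

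ITGA10, known from cartilage, was weakly expressed, with 5.98, 4.13 and 3.77 TPM in the controls and 1.49, 0.64 and 1.69 TPM in the treated cells. The lowest control was above the highest treated library. The mean was 3.63 times lower, with a log2 fold change of -1.32 (SE 0.26, limma adjusted p = 0.0227). The adjusted p was 0.0114 without control replicate 3 and lay between 0.0574 and 0.077 without any 1 of the other 5 libraries.

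ITGA2, a receptor chain for collagen on platelets and epithelial cells, was at 19.89, 18.68 and 6.09 TPM in the controls and at 38.35, 23.07 and 39.27 TPM after treatment. Treated and control values did not overlap, but control replicate 3 was at 31.6% of the mean of the other controls and treated replicate 2 was close to those. The means were 14.9 ± 7.64 and 33.6 ± 9.10 TPM, and the log2 fold change of 1.24 (SE 0.43, limma adjusted p = 0.137) was 0.73 without control replicate 3 (adjusted p = 0.0591). ITGA2 was called with library weights, at 0.92 (adjusted p = 0.00855), and with length and GC trends removed, at 1.04 (adjusted p = 0.0257). ITGA1, which lies beside ITGA2 on chromosome 5 and binds collagen of the basement membrane, was at 12.24, 16.37 and 3.11 TPM in the controls and at 12.76, 6.62 and 15.73 TPM in the treated cells. Its groups overlapped, and the log2 fold change of 0.30 (SE 0.56) turned to -0.33 without control replicate 3. The annotation places PELO, with 16.24 to 22.32 TPM, over ITGA1 on the same strand, so some reads could have been assigned to either gene.

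ITGA4 and ITGA9, which bind VCAM1 and fibronectin on leukocytes and other cells, were low or near 0. ITGA4 was at 2.34, 2.47 and 0.91 TPM in the controls and at 2.11, 1.04 and 2.03 TPM after rutaecarpine, with overlapping groups and a log2 fold change of -0.07 (SE 0.30, limma adjusted p = 0.907). ITGA9 was at no more than 0.09 TPM and was not tested.

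Summed over the 12 alpha chains, the mRNA for laminin-binding chains gave way to that for RGD-binding chains as the largest class. Laminin-binding chains made up 58.8, 56.2 and 60.6% of summed alpha-chain TPM in the controls and 39.3, 36.7 and 41.4% in the treated libraries. RGD-binding chains made up 38.2, 40.8 and 38.2% in the controls and 55.8, 60.2 and 52.6% after rutaecarpine. Control and treated libraries did not overlap in either class, and control replicate 3 was level with the other controls here.

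In TPM, the laminin-binding class went from 870.2 ± 14.3 to 518 ± 38.2 and the RGD-binding class from 582 ± 38.6 to 745 ± 70.8, while all alpha chains together summed to 1488 ± 51.1 TPM in the controls and 1325 ± 77.5 TPM in the treated cells. These sums were dominated by ITGA3, whose share was 48.9 ± 2.30% in the controls and 34.3 ± 2.13% after treatment, and by ITGA5, with 36.1 ± 1.58% and 51.7 ± 4.41%. Collagen-binding chains made up 2.27 ± 0.962% and 4.54 ± 1.45%, with the highest control at 2.83% close to the lowest treated library at 2.99%. No test was run on these shares, which follow from the values of the single chains and describe mRNA, not receptors at the cell surface.

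**Figure D2:**
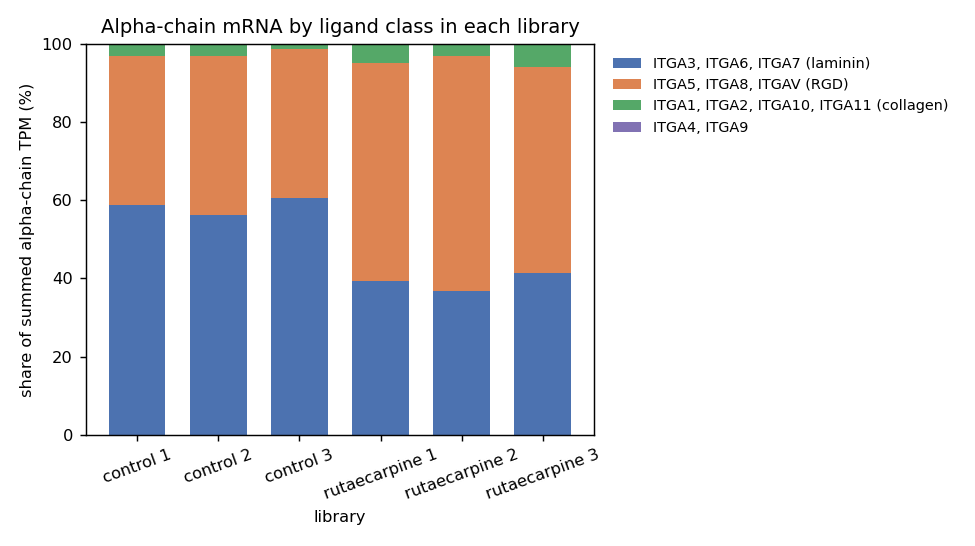
Share of summed alpha-chain TPM (y axis, percent) held by each ligand class in each of the 6 libraries (x axis, stacked bars from 0 to 100). Laminin-binding chains fill 56.2 to 60.6% of the control bars and 36.7 to 41.4% of the treated bars, RGD-binding chains show the opposite order, and ITGA4 with ITGA9 is too small to be seen.

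Of the beta chains, ITGB3 and ITGB8, which both pair with ITGAV, rose, whereas ITGB1 and ITGB5 did not pass the test. ITGB3, a receptor chain for vitronectin, fibronectin and other RGD proteins, was at 34.32, 36.65 and 18.62 TPM in the controls and at 68.68, 50.23 and 69.39 TPM after rutaecarpine. The lowest treated library was above the highest control, and control replicate 3 was the lowest of all. The mean rose 2.10 times, from 29.9 ± 9.81 to 62.8 ± 10.9 TPM (log2 fold change 1.09, SE 0.27, 95% interval 0.46 to 1.72, limma adjusted p = 0.0487). This was 0.79 (adjusted p = 0.0102) without control replicate 3, and the adjusted p lay between 0.0607 and 0.185 without any 1 of the other 5 libraries. The annotation places AC068234.1, with 2.01 to 3.64 TPM, over ITGB3 on the same strand, so some of these reads could have been assigned to either gene.

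ITGB8, which with ITGAV holds and activates latent TGF-beta and is known from astrocytes, was at 4.55, 4.66 and 1.76 TPM in the controls and at 11.36, 9.41 and 11.02 TPM in the treated cells. Every treated library was above every control. The mean was 2.90 times higher, 3.66 ± 1.64 against 10.6 ± 1.04 TPM, with a log2 fold change of 1.39 (SE 0.30, limma adjusted p = 0.0318). Without control replicate 3 it was 1.04 (adjusted p = 0.00277), and without any 1 of the other 5 libraries the adjusted p lay between 0.0501 and 0.13. The promoter printed for this gene is the one with TNGCGTG, which was found before 5.54% of all genes, and a link to the change was not tested.

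ITGB1, the common partner of most alpha chains, was the most abundant beta chain, with 651.31, 636.05 and 309.61 TPM in the controls and 584.77, 547.40 and 592.19 TPM after treatment. Control replicate 3 was at 48.1% of the mean of the other controls, and these 2 were above all treated libraries. The log2 fold change was 0.19 (SE 0.27, 95% interval -0.46 to 0.83, limma adjusted p = 0.703) with all libraries and -0.16 (adjusted p = 0.109) without control replicate 3. ITGB5, another partner of ITGAV, was at 84.00 to 108.14 TPM over all libraries, with overlapping groups and a log2 fold change of -0.19 (SE 0.10, limma adjusted p = 0.274).

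As shares of the summed TPM of the 8 beta chains, ITGB3 was at 4.42 ± 0.230% in the controls and 8.44 ± 1.04% after rutaecarpine, and ITGB8 at 0.524 ± 0.108% and 1.43 ± 0.0649%. For neither chain did the groups overlap. ITGB1 held 78.1 ± 6.70% and 77.7 ± 1.28%, but the control mean was drawn down by control replicate 3. Its shares were 82.6, 81.2 and 70.4% in the controls and 76.4, 79.0 and 77.7% after treatment. Control replicates 1 and 2 were thus above all treated libraries. ITGB4 was at 0.76 to 1.57 TPM and its log2 fold change was -0.19 (SE 0.19). Not tested were ITGB2, the beta chain of leukocyte integrins, which was listed at 0 in every control and reached 0.03 TPM in a treated library, ITGB6, an epithelial chain, with at most 0.13 TPM, and ITGB7, the partner of ITGA4 on lymphocytes. ITGB7 was at 0.32, 0.25 and 0.26 TPM in the controls and at 0.77, 0.97 and 0.61 TPM in the treated cells, below the level required for testing.

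**Figure D3:**
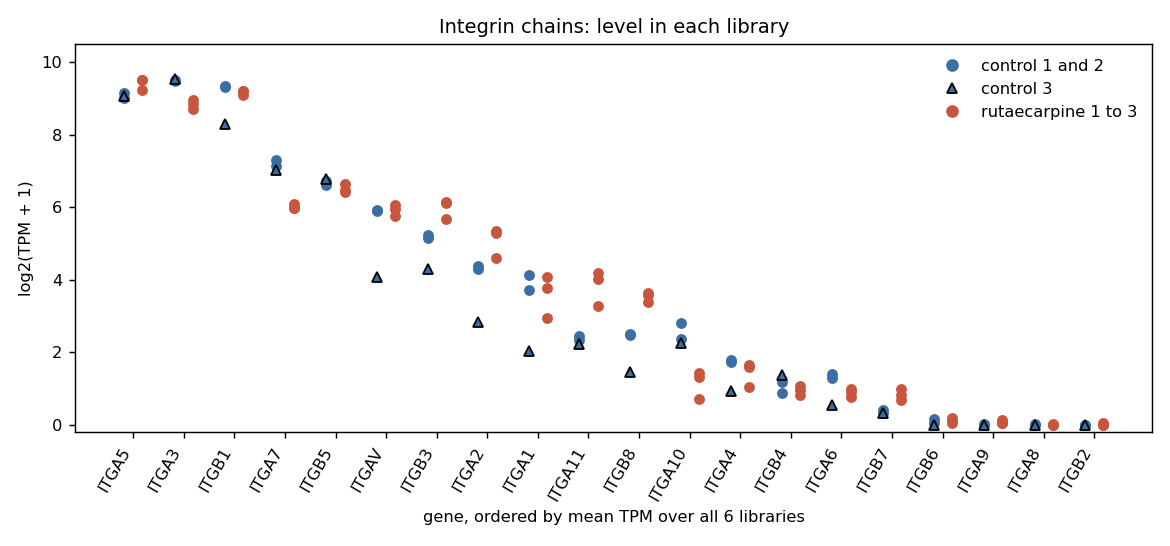
Level of each of the 20 integrin chains as log2(TPM + 1) (y axis) in each library, with genes ordered by mean TPM along the x axis, control replicates 1 and 2 as blue dots, control replicate 3 as outlined triangles and treated libraries as red dots. ITGA5, ITGA3 and ITGB1 lead, control replicate 3 lies well below the other controls for ITGB1, ITGAV, ITGA2 and ITGA1, and the treated libraries of ITGA3, ITGA7 and ITGA10 lie below all controls.

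The proteins that switch integrins on showed no change that passed the limma test described above, although some alternative settings called TLN2 or FERMT1. TLN1, talin, which binds the beta tails and actin, was at 162.57, 178.39 and 178.39 TPM in the controls and at 183.81, 158.13 and 174.98 TPM after rutaecarpine. The groups overlapped fully, and the log2 fold change of -0.01 had a 95% interval of -0.22 to 0.20 (limma adjusted p = 0.964). TLN2, the less abundant talin, was at 3.54 to 7.95 TPM in the controls and 2.51 to 3.91 TPM in the treated cells, with a log2 fold change of -0.56 (SE 0.28, limma adjusted p = 0.275) that was -0.80 (adjusted p = 0.0493) without control replicate 3.

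FERMT1, the kindlin of epithelial cells, was at 2.65, 2.81 and 1.85 TPM in the controls and at 1.51, 0.79 and 1.60 TPM after treatment. The groups did not overlap, though the lowest control was near the highest treated library. The log2 fold change was -0.59 (SE 0.22, limma adjusted p = 0.163), and it was called with library weights (-0.62, adjusted p = 0.0235) and with length and GC trends removed (-0.73, adjusted p = 0.0258). FERMT2, the widely expressed kindlin, was at 15.54 to 25.57 TPM in the controls and 20.64 to 23.89 TPM in the treated cells, with overlapping groups.

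None of the 4 genes of the ILK, PINCH and parvin complex passed the test with equal weight for all libraries. ILK, the pseudokinase at its centre, was at 181.40, 184.25 and 199.44 TPM in the controls and at 167.74, 169.30 and 173.85 TPM after rutaecarpine. The groups did not overlap, but the distance was small, with a log2 fold change of -0.14 (SE 0.07, 95% interval -0.32 to 0.03, limma adjusted p = 0.289). PARVB, a parvin that links ILK to actin, lay higher, at 86.34 to 96.49 TPM in the controls and 101.77 to 109.81 TPM in the treated cells. Its log2 fold change was 0.22 (SE 0.08, limma adjusted p = 0.170). This was 0.26 (adjusted p = 0.0370) without control replicate 3 and 0.27 (adjusted p = 0.00987) with library weights. With the libraries centred on their medians it was 0.12 (adjusted p = 0.709). PARVB overlaps SAMM50 on the same strand, and PARVA, the parvin of most tissues, was at 10.15 to 15.63 TPM in the controls and 10.93 to 13.75 TPM after treatment.

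LIMS1, which encodes PINCH, was at 99.81, 94.44 and 33.04 TPM in the controls and at 145.04, 134.18 and 159.48 TPM in the treated cells. All treated libraries were above all controls, and control replicate 3 was at 34.0% of the mean of the other controls. The log2 fold change was 1.09 (SE 0.39, 95% interval 0.16 to 2.02, limma adjusted p = 0.146), and without control replicate 3 it was 0.58 with an adjusted p of 0.00436, and with library weights 0.66 with an adjusted p of 0.0101. LIMS1 has near-identical copies in the genome, so its values are uncertain.

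Of the kinases, PTK2, which encodes FAK, was at 29.68 to 47.16 TPM in the controls and 41.66 to 46.20 TPM after treatment, with a log2 fold change of 0.14 (SE 0.18, limma adjusted p = 0.676) that turned to -0.07 without control replicate 3. SRC, its partner kinase, was at 17.73, 18.57 and 16.53 TPM in the controls and at 22.53, 20.10 and 23.12 TPM in the treated cells. The SRC groups did not overlap, with a log2 fold change of 0.30 (SE 0.12, limma adjusted p = 0.175).

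Among the other adaptors, LPXN rose and BCAR1 fell. LPXN, leupaxin, a relative of paxillin, was at 30.04, 27.01 and 21.36 TPM in the controls and at 67.86, 64.04 and 73.43 TPM after rutaecarpine. The lowest treated library was well above the highest control. The mean rose 2.62 times, from 26.1 ± 4.41 to 68.4 ± 4.72 TPM (log2 fold change 1.37, SE 0.14, 95% interval 1.03 to 1.70, limma adjusted p = 0.00191), and it was called under all 14 alternative settings with values between 1.23 and 1.47. Paxillin itself, PXN, the scaffold that recruits FAK and vinculin, was at 104.95 to 134.50 TPM in the controls and 101.45 to 121.52 TPM in the treated cells, with a log2 fold change of -0.11 (SE 0.13, limma adjusted p = 0.622).

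BCAR1, p130Cas, a docking protein phosphorylated by SRC, was at 70.93, 68.74 and 75.52 TPM in the controls and at 58.25, 49.30 and 48.29 TPM after treatment. All controls were above all treated libraries. The mean fell from 71.7 ± 3.46 to 51.9 ± 5.48 TPM (log2 fold change -0.46, SE 0.10, limma adjusted p = 0.0372). The adjusted p was 0.0248 without control replicate 3 and between 0.0504 and 0.163 without any 1 of the other 5 libraries. With the libraries centred on their medians it was 0.091.

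VCL, vinculin, which strengthens the link from talin to actin under load, was at 91.46, 89.25 and 48.90 TPM in the controls and at 53.83, 37.66 and 52.78 TPM in the treated cells. Control replicate 3 lay among the treated libraries, and the other controls were above all of them. The log2 fold change was -0.62 (SE 0.26, limma adjusted p = 0.204) with all libraries, -0.91 (adjusted p = 0.00690) without control replicate 3 and -0.72 (adjusted p = 0.0396) with the libraries centred on their medians.

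VASP, which promotes the growth of actin filaments, was at 46.26, 46.47 and 47.10 TPM in the controls and at 56.37, 58.65 and 51.64 TPM after rutaecarpine. The groups did not overlap, and the log2 fold change was 0.25 (SE 0.09, limma adjusted p = 0.148). ZYX, zyxin, which binds VASP at adhesions and stress fibres, was among the 3 most abundant adaptors, with 203.17, 202.22 and 236.80 TPM in the controls and 224.39, 207.22 and 211.77 TPM in the treated cells. Its groups overlapped, and the interval of its log2 fold change was -0.20 to 0.22. The tensins link adhesions to actin, and TNS3 was at 18.44 to 27.09 TPM in the controls and 17.52 to 21.34 TPM after treatment, with a log2 fold change of -0.25 (SE 0.18) that was -0.43 (adjusted p = 0.0380) without control replicate 3. TNS1 was at 3.34 to 6.52 TPM over all libraries, with overlapping groups.

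CAV1, caveolin, the membrane scaffold of caveolae that also binds integrin complexes, was the most abundant of the 19 adaptors and fell. It was at 626.26, 623.42 and 409.79 TPM in the controls and at 352.45, 277.39 and 295.80 TPM after rutaecarpine. All treated libraries were below all controls, and control replicate 3 lay between the other controls and the treated libraries. The mean was 1.79 times lower, 553 ± 124 against 309 ± 39.1 TPM, with a log2 fold change of -0.82 (SE 0.18, 95% interval -1.25 to -0.39, limma adjusted p = 0.0359). Without control replicate 3 the change was -1.02 (adjusted p = 0.000777), and without any 1 of the other 5 libraries the adjusted p lay between 0.0728 and 0.142.

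**Figure D4:**
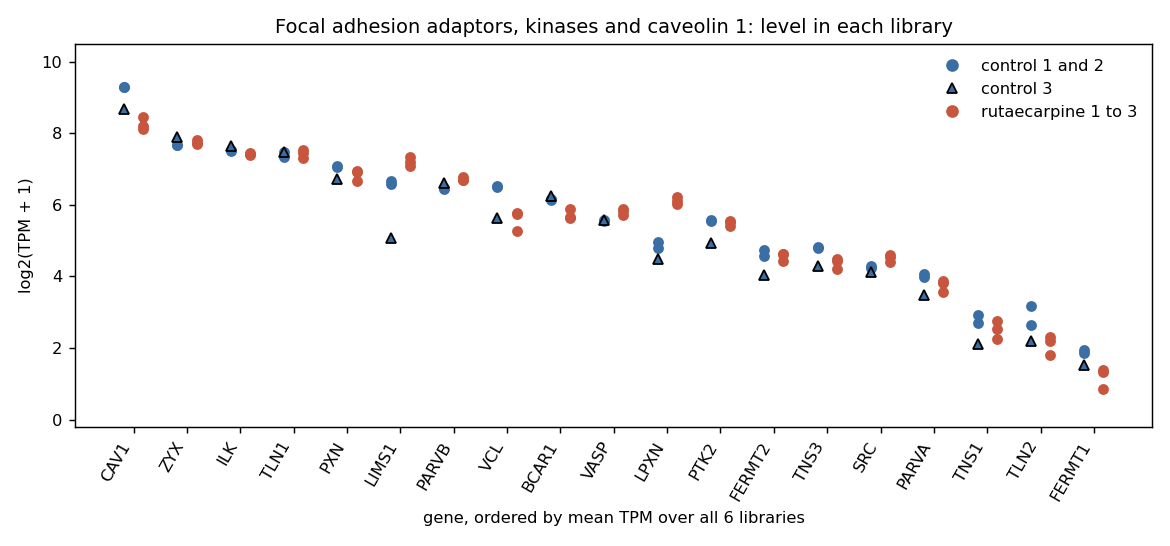
Level of each of the 19 adaptors, kinases and scaffolds as log2(TPM + 1) (y axis) in each library, with genes ordered by mean TPM along the x axis and symbols as for the integrin chains. The treated libraries lie below all controls for CAV1 and BCAR1 and above them for LPXN and LIMS1, and control replicate 3 lies far below the other controls for LIMS1 and VCL.

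Left out of the comparison, control replicate 3 changed the count of adaptors called from 3 to 8 and left the count of integrins at 6. The adaptors that passed the test without it but not with it were LIMS1, PARVB, TLN2, TNS3 and VCL. ITGA1, ITGB1, PTK2, FERMT2 and TLN1 changed sign, none of them past the threshold in either case. With library weights, in which control replicate 3 counted 0.121 against 0.611 to 2.49 for the others, these 5 adaptors and FERMT1, SRC, VASP, ITGA2 and ITGA5 were called besides the 9 members. The part of this library in the results above was not tested beyond these values.

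**Figure D5:**
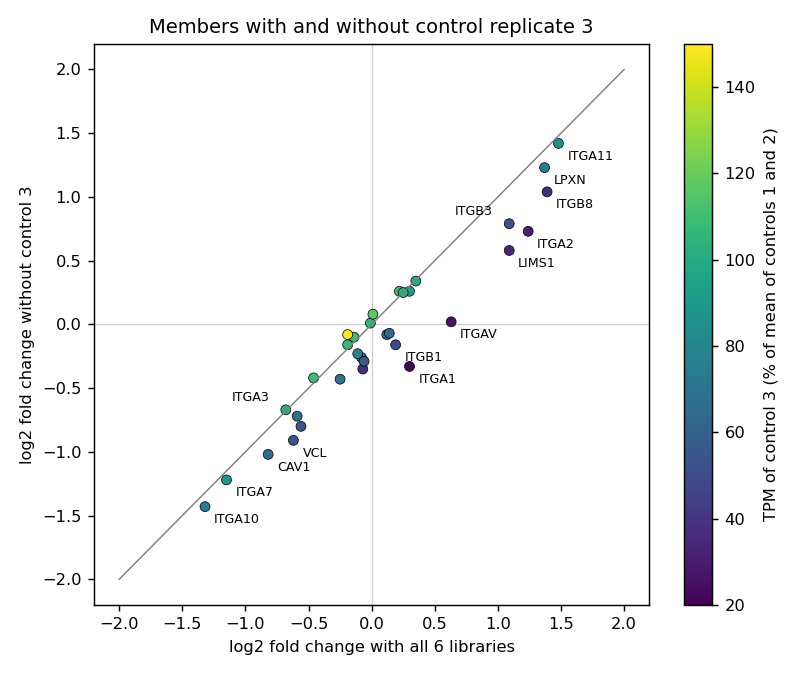
Log2 fold change of each tested member with all 6 libraries (x axis) and without control replicate 3 (y axis), coloured by the TPM of that library in percent of the mean of control replicates 1 and 2, with the line of equal values. Members in which control replicate 3 was low (dark) lie below the line, such as ITGAV with 0.63 against 0.02, while ITGA3 lies on it with -0.68 against -0.67.

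Genes around the members were described from a list of 84 further genes of integrin adhesion, of which 72 were tested, 3 rose and 13 fell. Calls made up 22.2% of those tested, against 9.29% of all tested genes (4.6% higher and 4.68% lower). Of the matrix ligands and surface partners 20 of 23 were tested, with 2 higher and 7 lower (45.0% called). THBS1, thrombospondin, a matrix protein bound by ITGAV with ITGB3 and by ITGA3, rose from 6.48 ± 3.02 to 40.5 ± 7.29 TPM. Its log2 fold change was 2.55 (SE 0.34, limma adjusted p = 0.00517). Control replicate 3 was at 37.8% of the mean of the other controls. Without that library the log2 fold change was 2.17 (limma adjusted p = 0.000275). THBS1 too is in the study's migration lists, so its direction is not independent evidence. PLAUR, the urokinase receptor, which associates with integrins, rose from 150.3 ± 2.70 to 236 ± 15.6 TPM (log2 fold change 0.64, SE 0.08, limma adjusted p = 0.00386), and its adjusted p was 0.0745 after centring on medians.

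The ligands that fell included both chains of type I collagen, a laminin chain and a matricellular protein. COL1A1 fell from 296 ± 22.9 to 131 ± 11.6 TPM and COL1A2 from 359 ± 19 to 154 ± 6.06 TPM. LAMA4, a laminin alpha chain of vessel walls and glioma, was 3.51 times lower, with 24.3 ± 3.30 and 6.93 ± 2.10 TPM, and CCN2, a matricellular ligand of ITGAV, was 3.15 times lower, with 15.9 ± 1.78 and 5.04 ± 0.546 TPM. VCAM1, the ligand of ITGA4 with ITGB1, was at 3.33 ± 1.08 and 0.903 ± 0.0751 TPM, but it reached the level for testing through the controls alone and so had to differ, and it is counted among the 7 and the 13 without supporting them. The study's migration lists, selected on these libraries, also hold COL1A1, COL1A2, LAMA4, CCN2 and VCAM1, so their direction is not independent evidence. FN1, fibronectin, the ligand of ITGA5 with ITGB1, which was named after its values were seen, fell from 6025 ± 895 to 3241 ± 367 TPM (log2 fold change -0.89, SE 0.14). FN1, COL1A1 and COL1A2 also belong to the mesenchymal markers, whose summed level is given above.

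Of 30 further adaptors 25 were tested, with 1 higher and 6 lower (28.0% called, against 9.29% of all tested genes). FERMT3, the kindlin of blood cells, rose from 14.5 ± 1.64 to 24.8 ± 0.576 TPM (log2 fold change 0.74, SE 0.12, limma adjusted p = 0.0127), with an adjusted p of 0.0282 or less without control replicate 2 or 3 and between 0.0536 and 0.0709 without any 1 of the others. TES, testin, a LIM protein of adhesions that binds zyxin, was 2.46 times lower, with 6.06 ± 0.652 and 2.46 ± 0.265 TPM. EVL, a relative of VASP, fell from 24.4 ± 1.60 to 14.8 ± 2.80 TPM and ACTN4, an actinin that crosslinks actin, from 271 ± 16.8 to 170 ± 24.5 TPM. SORBS3, vinexin, which binds vinculin, fell from 114 ± 1.56 to 82.7 ± 4.62 TPM, with -0.46 as its log2 fold change. The calls of TES, EVL, ACTN4 and SORBS3 held without control replicate 3, while SORBS3 was lost with centring on medians (adjusted p = 0.0763) and EVL with no filter on low TPM (adjusted p = 0.0766). All 4 were lost without control replicate 1, with adjusted p of 0.0519 for TES, 0.106 for EVL, 0.0530 for ACTN4 and 0.0599 for SORBS3. Calls were also lost for EVL, ACTN4 and SORBS3 without control replicate 2 (adjusted p of 0.0592 to 0.091). Without treated replicate 1 they were lost for TES and SORBS3 (0.0624 and 0.0615). Without treated replicate 2 the call of EVL was lost (0.113), and TES stood at the threshold with an adjusted p of 0.05. Without treated replicate 3 the calls of EVL, ACTN4 and SORBS3 were lost (0.0612 to 0.146).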

How the data were processed

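Per the methods and the sample labels, the authors extracted RNA from U87 cells, sequenced the libraries on an Illumina platform and quantified genes with RSEM, and they deposited 1 table of TPM with a column per library. RSEM divides reads that match several genes. The submitters' processing notes name GRCh38.p13, RSEM, DESeq2 and edgeR, and the aligner, the annotation release and any filter on the deposited table are not given in the sources used here. The study's screen on a TPM under 2 is stated for its choice of migration genes. TPM keep no read numbers, so depth is unknown and no count model was used. All 6 columns were matched to samples and 0 were left over. Of the 39 members, 37 were named in the table, and ITGA1 and ITGB3 were found by Ensembl identifier.

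Groups were taken from the labels. The log2(TPM + 1) of genes that reached 1 TPM in 3 or more libraries was compared between groups with limma 3.58.1 in R 4.3.3 (two-sided, with empirical Bayes and a trend of variance on mean), with p values adjusted by Benjamini-Hochberg over 14377 genes. Fold changes on this scale understate those of weakly expressed genes. The scripts were tested on simulated data. Tables and figures were made in Python 3.11.15 with pandas 2.3.3, numpy 2.4.6 and matplotlib 3.10.9. Overlapping genes came from GENCODE 29 and promoters from RefSeq. Members and lists were chosen with earlier results of these data known. Every library's value was given for members that passed the test or had an absolute log2 fold change above 1, for those in the study's migration lists and for the 3 most abundant integrins and adaptors, and of the further genes at most 5 per list and direction with the largest change were named, with FN1 added and 1 gene not reported here. Other members given by library were chosen after their values were seen. The alternatives were centring on medians, no trend, both filters, a replicate block, a pseudocount of 0.1, library weights, each library left out and removal of length and GC trends, the last chosen once the deviation of control replicate 3 had been seen.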

Additional observations from a re-analysis of the deposited data

How the results depend on the processing

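ITGA3, ITGA7 and LPXN kept their calls under all 14 alternatives, and the other 6 members called kept their direction. Of the 6 integrins called, 3 were called with no filter on low TPM and 2 with a replicate block, and the count was 8 with library weights, 7 with length and GC trends removed and 2 to 6 with 1 library left out. Of the 5 integrin DEGs, no filter, the block and 1 library left out gave 2, 1 and 1 to 4, and the 1 adaptor DEG became 1 to 2 with 1 library left out. The 3 adaptors called became 1 without the trend, 1 with no filter, 1 with the replicate block, 11 with library weights, 5 with length and GC trends removed and 1 to 8 with 1 library left out. The 16 further adhesion genes called became 6, 37, 25 and 7 to 35 with the block, the weights, the trends removed and 1 library left out, and the 1335 calls over all genes became 428, 3962, 2089 and 539 to 2666. The highest counts with a library left out were those without control replicate 3, a setting that also gave 6 integrins. The cause of these shifts was not tested. A TPM of at least 1 in all 6 libraries gave no value for ITGA4, ITGA10, ITGB4, FERMT1 and VCAM1.

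Same-numbered libraries did not deviate together over the tested genes (r of 0.116, -0.266 and -0.215 for numbers 1, 2 and 3, against 0.387 for control replicate 3 with treated replicate 2), so the replicate block rests on a shared number alone. Under it ITGA3, ITGA7 and LPXN were called among the members, and TES, EVL, ACTN4 and SORBS3 were not (adjusted p of 0.0797 to 0.118).

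Changes of sign were limited to 9 members that were not called. These were -0.06 for FERMT2 and 0.00 for TLN1 with length and GC trends removed, -0.09 for ZYX with centring, and -0.01 for FERMT2, -0.15 for ITGA1, -0.11 for ITGB1, -0.03 for PTK2 and 0.04 for TLN1 with library weights. With 1 library left out, the log2 fold changes ranged from -0.08 to 0.26 for FERMT2, -0.33 to 0.71 for ITGA1, -0.35 to 0.13 for ITGA4, -0.16 to 0.37 for ITGB1, -0.26 to 0.03 for PARVA, -0.07 to 0.25 for PTK2, -0.06 to 0.05 for TLN1, -0.29 to 0.11 for TNS1 and -0.03 to 0.08 for ZYX.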

Other observations

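The signalling genes downstream of adhesions and the integrin chains outside the members, with the integrin-like ITGBL1, were also listed. All 24 signalling genes were tested with limma, and 0 were called, against 9.29% of all tested genes. An unadjusted p under 0.05 was found for 5 of them, which 24.4% of all tested genes reached. Their median log2 fold change was 0.15, against 0.08 for all genes. RHOA, RAC1 and CDC42, the small GTPases that control stress fibres, ruffles and filopodia, had mean levels of 469 ± 14.3, 171 ± 8.36 and 123 ± 16.5 TPM in the controls and 437 ± 7.67, 169 ± 13.4 and 129.8 ± 3.21 TPM after rutaecarpine. They were named after their values were seen. Of 7 further genes, integrin chains and the integrin-like ITGBL1, 3 were tested. Limma called 0 of these, against 9.29% of all tested genes, with 0 at an unadjusted p under 0.05. ITGAX was at 7.61 to 9.89 TPM in the controls and 10.82 to 11.76 TPM in the treated cells, and ITGBL1, an integrin-like secreted protein, at 18.69 to 36.56 and 38.08 to 41.34 TPM, so that neither gene's groups overlapped. ITGAE was at 26.21 to 34.99 and 29.92 to 37.11 TPM, with overlapping groups. ITGAL, ITGAM, ITGAD and ITGA2B, chains of leukocytes and platelets, were at no more than 1.09 TPM in any library.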
